A study of Mus musculus with 16 samples.

Results

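The step from Flk1+ cells to the first stage of the hemogenic endothelium (HE1) was examined in Sp1-/- cells, on 4 of the 16 arrays of the study. The arrays were chosen by their labels alone: 2 arrays of Sp1-/- Flk1+ cells and 2 arrays of Sp1-/- HE1, all on 1 slide. Both populations came from mouse ES cells in which the mutated Sp1 gene makes a shortened protein that has lost its DNA-binding domain. The deposited labels give the strain as C57BL/6. Flk1+ cells were selected with magnetic beads from embryoid bodies, the clusters in which ES cells begin to differentiate. HE1 cells were sorted by flow cytometry as KIT+ Tie2+ CD41- from blast culture, in which Flk1+ cells are grown further, after the floating and the adherent cells had been pooled. The 2 populations thus differ in culture, in the way of sorting and in cell type, and these cannot be told apart in the comparison. The same step in the Sp1+/+ cells, labelled E14, an ES cell line, again with 2 arrays of each population and on a second slide, served for comparison.

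Flk1, the product of Kdr, is the main receptor for VEGF and marks mesoderm that holds the hemangioblast, a precursor of blood, endothelial and cardiac cells. In culture, and in the embryo, such mesoderm leaves the program of the primitive streak and forms an endothelium, part of which later releases blood cells. HE1 is the stage of that endothelium before CD41, an early blood marker, appears on the surface. Sp1 is a zinc finger factor found in nearly all cells that binds GC-rich promoter elements called GC boxes.

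The promoters of 2 genes that rose (Tie1, an endothelial receptor, and Klf2, a factor of endothelium under flow) and 2 that fell (Mesp1 and T, factors of the primitive streak) are shown because these genes were among those with the largest changes. Each runs from 250 bases before to 50 bases after the annotated start in RefSeq, build GRCm38.p6. Capitals mark every match, on either strand, to one of 6 motifs: the GC box GGGCGG, the GATA motif AGATAA, the ETS motif CAGGAA, the AP-1 motif TGACTCA, the CCAAT box CCAAT and the E-box CAGCTG. Tie1 lies at chr4:118489800-118490099 on the minus strand, Klf2 at chr8:72318812-72319111 on the plus strand, Mesp1 at chr7:79793541-79793840 on the minus strand and T at chr17:8434173-8434472 on the plus strand.

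Tie1: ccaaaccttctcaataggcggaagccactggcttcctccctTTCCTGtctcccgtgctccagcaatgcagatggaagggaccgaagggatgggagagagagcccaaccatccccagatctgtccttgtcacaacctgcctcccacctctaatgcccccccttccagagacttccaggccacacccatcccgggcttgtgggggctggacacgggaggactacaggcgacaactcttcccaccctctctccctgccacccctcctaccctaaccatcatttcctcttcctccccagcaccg
Klf2: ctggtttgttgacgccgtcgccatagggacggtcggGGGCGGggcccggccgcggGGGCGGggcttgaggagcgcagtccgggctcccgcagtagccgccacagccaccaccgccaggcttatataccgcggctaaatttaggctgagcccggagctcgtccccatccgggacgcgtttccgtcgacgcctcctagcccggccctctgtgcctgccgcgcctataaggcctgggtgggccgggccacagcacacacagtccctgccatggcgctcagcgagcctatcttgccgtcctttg
Mesp1: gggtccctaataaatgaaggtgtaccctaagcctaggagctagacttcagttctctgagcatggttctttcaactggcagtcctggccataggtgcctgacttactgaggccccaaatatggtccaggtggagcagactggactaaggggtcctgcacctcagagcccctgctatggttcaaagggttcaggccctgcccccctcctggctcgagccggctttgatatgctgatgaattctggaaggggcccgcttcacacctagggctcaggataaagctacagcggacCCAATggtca
T: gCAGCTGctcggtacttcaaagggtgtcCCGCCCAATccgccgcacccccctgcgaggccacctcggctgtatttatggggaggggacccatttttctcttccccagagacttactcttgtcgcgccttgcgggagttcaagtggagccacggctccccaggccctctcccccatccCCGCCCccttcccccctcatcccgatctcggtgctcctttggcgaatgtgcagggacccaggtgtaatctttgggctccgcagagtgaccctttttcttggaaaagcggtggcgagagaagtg

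Klf2 and T each hold 2 GC boxes and Tie1 and Mesp1 hold 0 in this window. Tie1 holds 1 ETS motif, Mesp1 1 CCAAT box, and T 1 E-box and 1 CCAAT box that shares letters with one of its GC boxes. A RefSeq promoter was matched for 15961 of the 20121 genes tested that have a symbol, 19550 promoters in all, since a gene can have several. The GC box was found in 49.2% of all these promoters, in 57.9% of the 1484 promoters of genes that rose and in 62.3% of the 1466 promoters of genes that fell. The median GC content was 57.3% over all promoters, 59.7% for genes that rose and 60.7% for genes that fell, and its part in the GC box shares was not tested. The ETS motif was in 28.1% of all promoters, in 30.7% for genes that rose and in 24.1% for genes that fell, and the CCAAT box in 37.9%, 31.7% and 40%, respectively. The GATA motif was in 9.36%, 8.02% and 6.62%, the AP-1 motif in 4.6%, 5.53% and 3.34%, and the E-box in 16.1%, 18.7% and 16.9%, in the same order. These shares describe letters in a window and carry no test.

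Values are the log2 normalized intensities that the authors deposited, 1 probe per gene, and the number of arrays limits the precision. On the 4 arrays, between 70.6% and 77.1% of probes were well above background. The 2 Sp1-/- HE1 arrays correlated at 0.9898 over genes and had a median SD of 0.134, the lowest correlation and the highest SD of the 8 groups, against 0.9961 and 0.085 for Sp1-/- Flk1+ cells. The study's design text calls the replicates biological, but a legend speaks of technical replicates, so the p-values measure only the spread between these arrays, which may be technical. All Sp1-/- arrays shared 1 slide and all Sp1+/+ arrays the other, so a difference in level between genotypes cannot be told apart from one between slides.

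A gene was called when limma gave an unadjusted p of 0.01 or less and the means differed by at least 2-fold. Of 37154 genes tested, 1719 (4.63%) rose from Flk1+ cells to HE1 in Sp1-/- cells and 1810 (4.87%) fell, and 33625 were not called. Only 20121 of the tested genes have a symbol, and the gene lists below were drawn from these. Among them 1412 rose and 1440 fell. After Benjamini-Hochberg adjustment no called gene had a p above 0.0374. In all 3529 called genes the 2 HE1 arrays lay on the same side of the 2 Flk1+ arrays. The genes were called on these same arrays, so this adds no separate support. The share without overlap among all genes tested was not counted. The change reached 4-fold in 546 genes that rose and 439 that fell, and 16-fold in 88 and 57, while the median log2 fold change over all genes was -0.01. Of the genes that rose, 64 were not well above background on either Flk1+ array, and of the genes that fell, 70 were not so on either HE1 array, so that their fold changes are lower bounds.

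The transcript of Sp1 itself had log2 intensities of 10.29 and 10.25 on the Flk1+ arrays and 9.03 and 9.22 on the HE1 arrays of the Sp1-/- cells. It fell by 1.15 on the log2 scale (standard error 0.18, adjusted p = 0.000484), with no overlap of the arrays. In Sp1+/+ cells it stood at 12.53 and 12.56 in Flk1+ cells and at 12.39 and 12.42 in HE1. The mutated locus is still transcribed, so this probe shows the level of a transcript and not of a working protein. The fall was 0.98 with the scanner's processed signal, just short of 2-fold.

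The sorted populations were checked against their markers. Cdh5, the VE-cadherin of endothelial junctions, measured 9.22 and 9.61 in Flk1+ cells and 14.54 and 14.62 in HE1, a 35.9-fold rise (log2 fold change 5.17, standard error 0.43, adjusted p = 6.72e-06). Pecam1, which encodes the adhesion molecule CD31, measured 7.94 and 8.29 in Flk1+ cells and 10.73 and 11.17 in HE1 (log2 fold change 2.83, adjusted p = 1.33e-05). Both HE1 arrays thus carried the defining endothelial transcripts well above both Flk1+ arrays. The genes of the gate moved accordingly but are no finding, since they chose the cells: Kit, the stem cell factor receptor, had a log2 fold change of 1.64 and Tek, which encodes Tie2, one of 4.11. Itga2b, which encodes the CD41 that HE1 cells must lack on their surface, measured 7.54 and 7.98 in Flk1+ cells and 10.66 and 11.43 in HE1 (log2 fold change 3.29, adjusted p = 2.7e-05). Its transcript was therefore higher on both HE1 arrays although the gate was set against the protein. Kdr was high in both populations, at 14.26 and 14.38 in Flk1+ cells and 14.37 and 15.37 in HE1, and was not called (log2 fold change 0.55, adjusted p = 0.134). Without HE1 replicate 1 the log2 fold change of Kdr was 1.05 and the gene was called.

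**Figure D1:**
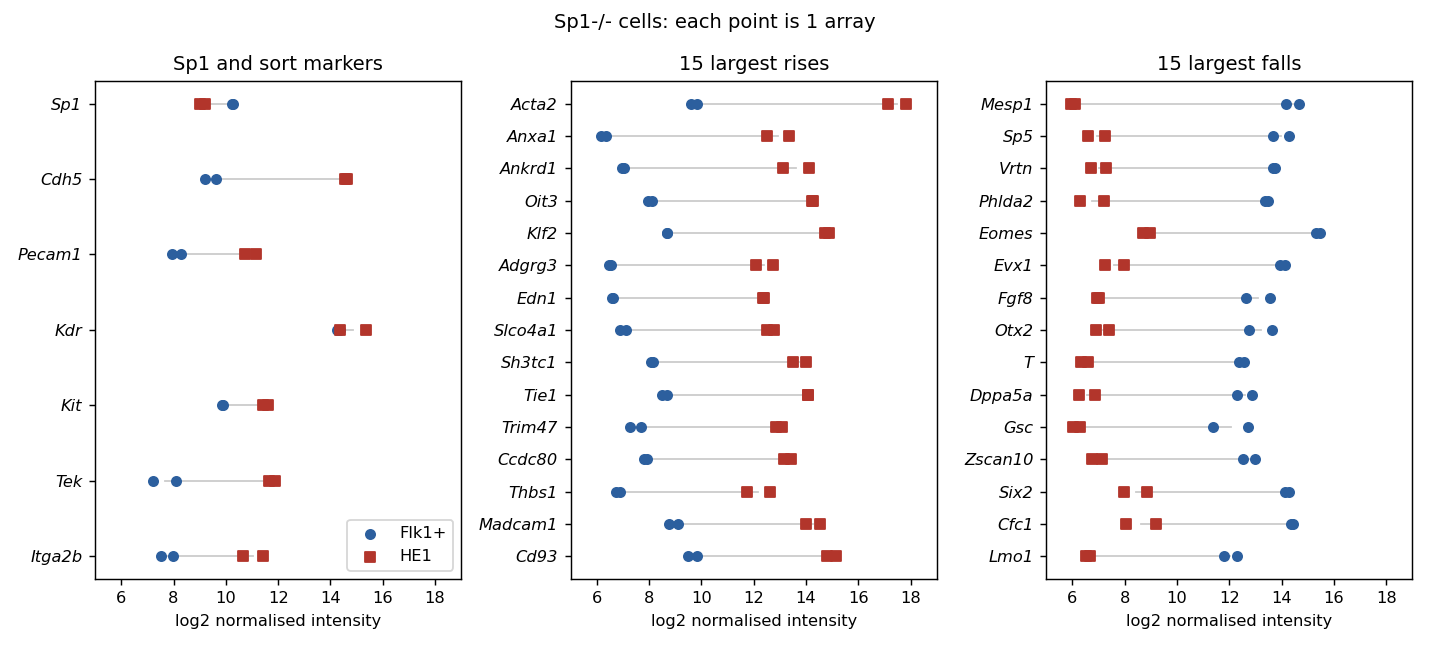
Log2 normalized intensity (x axis) of Sp1, markers and the genes with the 15 largest rises and the 15 largest falls in Sp1-/- cells. The panel of Sp1 and sort markers also holds the endothelial markers Cdh5 and Pecam1, which were not used for sorting. Each circle is a Flk1+ array and each square an HE1 array, 2 of each per gene, and grey lines join the group means. Among Sp1 and all these markers only Kdr has overlapping groups, its lower HE1 array (14.37) lying next to the higher Flk1+ array (14.38). The largest rises and falls were taken from called genes without overlap, so their separation was set by the choice.

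Genes that build and mark blood vessels were among the genes with the largest rises. Of 34 vascular receptors and junction genes, 30 rose and 1 fell, with a median log2 fold change of 3.61. The list holds Tek and Kdr, whose products served to sort the cells, and Tek is counted among the 30. The only member that fell was Aplnr, the apelin receptor, from 11.87 and 11.86 to 10.52 and 10.77 (log2 fold change -1.22, adjusted p = 0.0195). That call was lost whenever any 1 of the 4 arrays was left out of the fit over all groups (log2 fold changes -1.35 to -1.09). With only the 4 arrays in the limma fit the unadjusted p of Aplnr was 0.00047. Tie1, a partner of Tie2, measured 8.48 and 8.69 in Flk1+ cells and 14.07 and 14.09 in HE1, a 45.1-fold rise (adjusted p = 2.77e-06). Cd93, a surface lectin of endothelium, went from 9.82 and 9.48 to 14.79 and 15.14 (log2 fold change 5.32). Mmrn2, an extracellular partner of Cd93, went from 8.74 and 8.78 to 13.63 and 14.04 (log2 fold change 5.08). In each of these genes the HE1 arrays stood far above the Flk1+ arrays and close to each other. They were named for the size of their rise on these same arrays. Kdr, Stab2 and Gja5 were not called, with log2 fold changes of 0.55, 0.15 and -0.15. Stab2, a scavenger receptor of sinusoids, and Gja5, an arterial connexin, stayed below a log2 intensity of 7.2 on all 4 arrays.

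Among 24 transcription factors of endothelium and hemogenic endothelium, 13 rose and 2 fell, with a median log2 fold change of 1.24. Klf2, a zinc finger factor that endothelial cells induce under blood flow, rose 68.8-fold, from 8.68 on both Flk1+ arrays to 14.71 and 14.86 (adjusted p = 1.4e-06). The ETS factor Erg measured 7.61 and 7.58 in Flk1+ cells and 10.48 and 10.99 in HE1 (log2 fold change 3.14), and its relative Elk3 10.67 and 11.03 against 13.99 and 13.94 (log2 fold change 3.12). Bcl6b, a repressor found in endothelium, rose by a log2 fold change of 3.29. Etv2, the ETS factor that starts the endothelial program in mesoderm, ran the other way, at 14.31 and 14.3 in Flk1+ cells and 11.01 and 10.99 in HE1 (log2 fold change -3.31, adjusted p = 2.18e-08). Foxf1, a forkhead factor of lateral mesoderm, fell by 1.1 on the log2 scale, and by 0.86, short of 2-fold, without Flk1+ replicate 2. Of the factors shared by blood and endothelium, Tal1, Lmo2 and Gata2 were not called, with log2 fold changes of 0.28, -0.42 and -0.36. Sox7 had a log2 fold change of 2.08 (unadjusted p of 0.0168) and was not called, but it passed when only the 4 arrays or only the 8 Sp1-/- arrays entered the fit (unadjusted p of 0.000746 and 3.67e-05). Epas1 was read from a probe with a log2 fold change of 0.25, whereas its 2 dimmer probes differed by 4.67 and 3.1, so its change depends on the probe.

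Of 30 genes of basement membrane and matrix, 19 rose, 0 fell and 11 were not called (median 1.92). Thbs1, the adhesive glycoprotein thrombospondin 1, measured 6.73 and 6.89 in Flk1+ cells and 12.61 and 11.73 in HE1 (log2 fold change 5.36). Postn, which encodes periostin, was not well above background in Flk1+ cells and reached 11.91 and 10.38 in HE1, an at least 33.5-fold rise (adjusted p = 0.000571). Timp3, an inhibitor of matrix proteases, had a log2 fold change of 4.18 and Col1a2, a chain of type I collagen, one of 3.64. Their 2 HE1 arrays differed more than those of Cdh5 and Tie1 did, most of all for Postn.

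The largest rise of any gene with a symbol was that of Acta2, the smooth muscle actin, from 9.85 and 9.59 to 17.84 and 17.12, which is 217-fold (log2 fold change 7.76, adjusted p = 7.08e-07). Of 21 genes of smooth muscle and mesenchyme, 7 rose and 2 fell. Tagln, another contractile smooth muscle gene, had a log2 fold change of 4.90, the intermediate filament gene Vim one of 2.79, and the small matrix proteoglycan gene Lum, not well above background in Flk1+ cells, rose at least 3.65-fold, a call lost when only the 4 arrays entered the fit. Cdh11 and Mfap4, a cadherin and a fibril protein of mesenchyme, fell by 3.30 and 2.17 on the log2 scale. The smooth muscle genes Cnn1 and Myh11 and the pericyte receptor gene Pdgfrb were not called, with log2 fold changes of 0.74, 0.26 and 0.55. The summed intensity of the list, as log2, was 16.17 to 16.19 on the Flk1+ arrays and 18.77 to 19.2 on the HE1 arrays. That sum was mostly Acta2, Vim (17.48 and 17.37 in HE1) and Tagln (17.09 and 16.53), while 12 of the 21 genes were not called and the median log2 fold change was 0.55. Acta2, Vim and Tagln rose on the same arrays as the endothelial genes, and their part in the endothelial rise was not tested. In bulk RNA more cells of a type and more RNA per cell cannot be told apart.

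Among 20 cardiac mesoderm genes, 4 rose and 5 fell. Those that rose were mostly contractile genes, with Tnnt2, cardiac troponin T, going from 7.96 and 7.84 to 12.53 and 12.36 (log2 fold change 4.55), Tnni1 and Myh7 rising by 2.20 and 2.06 and the heart factor Nkx2-5 by 1.94. Those that fell included the atrial light chain gene Myl7 (log2 fold change -3.94), the progenitor factors Isl1 (-2.76) and Tbx5 (-2.21), and Bmp5 (-2.68). Sarcomere genes thus moved both ways.

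The other genes with the largest rises had varied roles. Anxa1, a phospholipid-binding protein, measured 6.34 and 6.16 in Flk1+ cells and 13.36 and 12.49 in HE1 (log2 fold change 6.68). Ankrd1, a muscle ankyrin repeat protein, rose by 6.59 and Edn1, the vasoconstrictor endothelin 1, by 5.77 on the log2 scale. Madcam1, an addressin on which lymphocytes roll, rose by 5.33. Oit3, Sh3tc1, Trim47, Ccdc80, the organic anion transporter gene Slco4a1 and the adhesion G protein-coupled receptor gene Adgrg3 had log2 fold changes between 5.43 and 6.18. In every one of these genes the lower HE1 array exceeded the higher Flk1+ array by far more than the gap between the 2 arrays of either group. The genes were ranked by their rise on these same arrays, so this gap is no separate support.

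The program of the primitive streak and early mesoderm was the counterpart on the falling side. Of 27 measured genes of this list, 22 fell and 0 rose, with a median log2 fold change of -3.93. Mesp1, a basic helix-loop-helix factor of nascent mesoderm, measured 14.68 and 14.16 in Flk1+ cells and was not well above background on either HE1 array (6.09 and 5.94), an at least 339-fold fall (adjusted p = 1.3e-07). Eomes, a T-box factor, went from 15.45 and 15.31 to 8.96 and 8.7, a 93.7-fold fall, and T, or brachyury, from 12.58 and 12.37 to 6.6 and 6.32. Sp5, a relative of Sp1 that Wnt signals induce, fell by 7.04, the homeobox factors Evx1 and Gsc by 6.42 and 5.90, and the growth factor gene Fgf8 by 6.11 on the log2 scale. Cfc1, a coreceptor for Nodal, went from 14.36 and 14.45 to 9.21 and 8.06. These genes lay between 11.39 and 15.45 on the Flk1+ arrays and between 5.94 and 9.21 on the HE1 arrays. The 5 genes not called were Tbx6, Wnt3a, Msgn1, Ripply2 and Sp8, and for 2 of them the probe mattered: Tbx6 had a log2 fold change of -0.62 and Sp8 one of 0.67, whereas a further probe of each differed by -3.09 and -3.77.

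Of 24 pluripotency genes, 12 fell and 2 rose (median -1.09). Otx2, a factor of the epiblast and anterior neural tissue, fell by 6.05 and Dppa5a, an RNA-binding protein of ES cells, by 6.02. Pou5f1, the ES cell factor OCT4, measured 10.56 and 10.16 in Flk1+ cells and 6.73 and 6.82 in HE1 (log2 fold change -3.59, adjusted p = 1.54e-06), and Sall4 13.24 and 13.19 against 10.28 and 9.62. The 2 that rose were Klf4, by 1.67, and Nanog, from 8.78 and 8.2 to 9.51 and 10.51. Klf4 is also an endothelial factor. The rise of Nanog was not called when only the 4 arrays entered the fit. Zscan10, a partner of OCT4 in ES cells, Vrtn, Phlda2, the homeobox gene Six2 and the LIM-domain gene Lmo1 were also among the 15 largest falls, with log2 fold changes between -6.72 and -5.44.

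Of 15 epithelial genes, 4 fell and 0 rose: Cdh1, which encodes E-cadherin, from 9.85 and 9.43 to 6.94 and 6.53 (log2 fold change -2.91), Epcam at least 3.24-fold, the claudin gene Cldn7 by 1.51 and the splicing factor gene Esrp1 by 1.47 on the log2 scale (0.98 without Flk1+ replicate 1). The keratin genes Krt8, Krt18 and Krt19 were not called, with log2 fold changes of -0.78, 0.75 and 1.82 (unadjusted p of 0.285, 0.259 and 0.0145). Krt19 was called as rising with the replicate block and when only the 4 arrays or only the 8 Sp1-/- arrays entered the fit (unadjusted p of 0.00574, 0.00104 and 0.000355), and with the processed and scaled signal 7 epithelial genes fell and 1 rose. Of 15 genes of visceral and definitive endoderm, 3 rose, among them Trf, which encodes transferrin (log2 fold change 2.90), and the endocytic receptor gene Cubn (2.12), and 4 fell, among them the forkhead factor genes Foxa1 (-1.90) and Foxa2 (-1.24) and Rbp4 (-2.59). The call of Foxa2 was lost without HE1 replicate 2 or Flk1+ replicate 1, where it fell by 0.72 and 0.99.

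**Figure D2:**
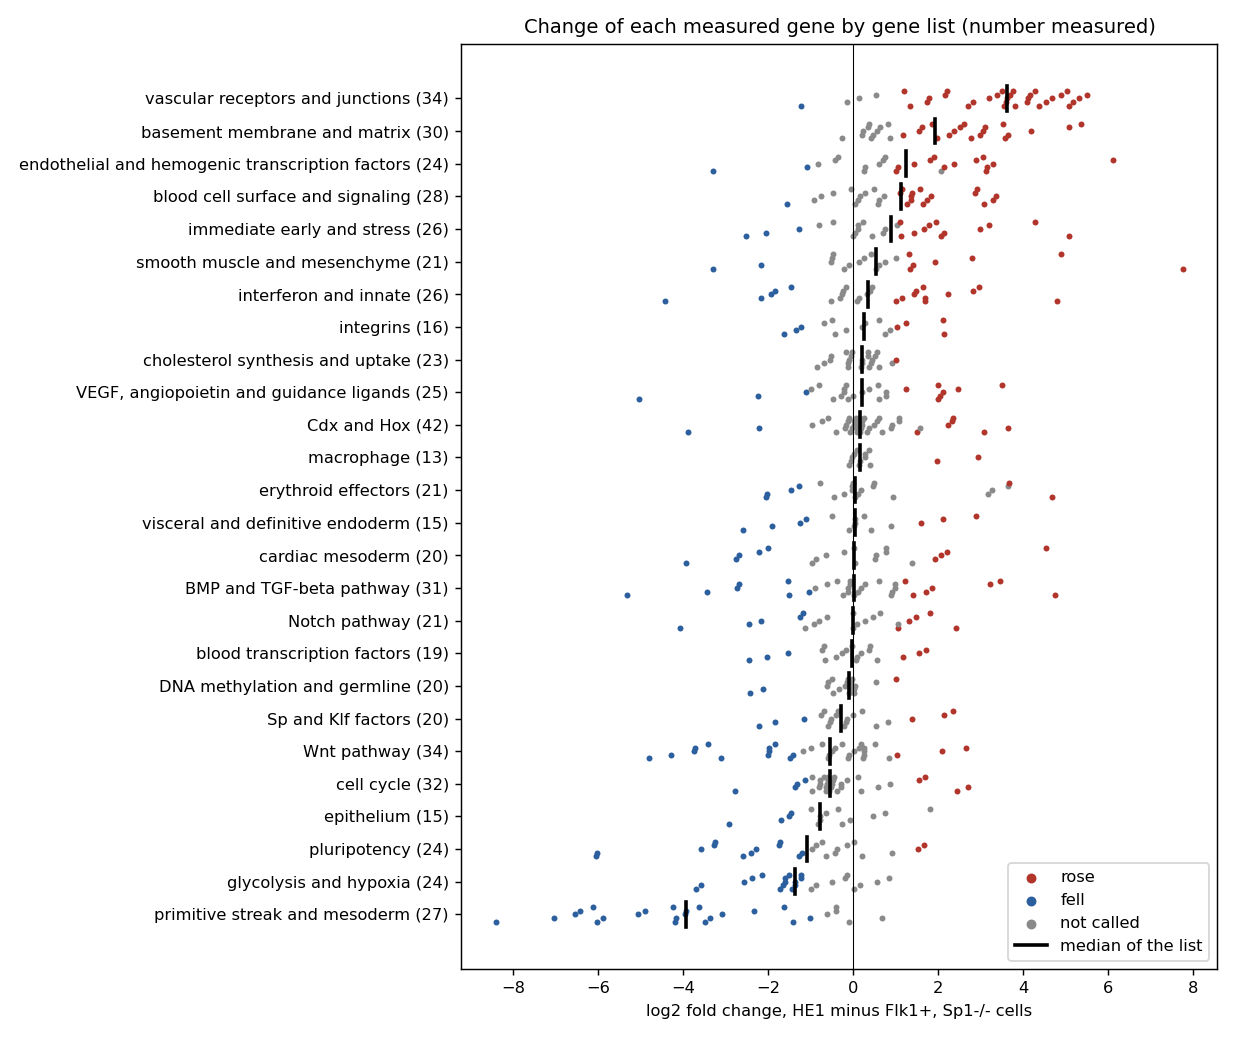
Log2 fold change from Flk1+ cells to HE1 in Sp1-/- cells (x axis) for every measured gene of the 26 gene lists (rows, ordered by median, number of measured genes in parentheses). Red points rose, blue points fell, grey points were not called and black bars mark the medians, from 3.61 for vascular receptors and junctions to -3.93 for the primitive streak and mesoderm.

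Blood genes split by kind. Of 28 genes of the blood cell surface and its signaling, 15 rose and 1 fell, with a median of 1.12, whereas of 19 blood transcription factors 3 rose and 3 fell. The 15 include Kit and Itga2b, whose products were used in the HE1 gate. Csf2rb, a shared cytokine receptor chain, measured 7.83 and 7.76 in Flk1+ cells and 11.08 and 11.23 in HE1 (log2 fold change 3.36). Was, the actin regulator mutated in Wiskott-Aldrich syndrome, rose by 3.09 and the lysosomal gene Laptm5 by 2.93, whereas Spn, which encodes CD43, fell by 1.55 but was not called with the mean over probes. Runx1, on which the release of blood from endothelium depends, stood at 10.6 and 10.83 in Flk1+ cells and 10.76 and 11.44 in HE1 and was not called (log2 fold change 0.39, adjusted p = 0.43), with a further probe lower by 0.78 in HE1. Spi1, the myeloid factor PU.1, was not well above background on either HE1 array. Ptprc, the pan-leukocyte CD45, was dim on all 4 arrays, at 6.35 to 6.79. Among the transcription factors, the corepressor gene Cbfa2t3, the Hox cofactor Meis1 and Irf8 rose by 1.71, 1.56 and 1.18, and Gata1, the erythroid regulator, Bcl11a and Lef1 fell by 2.45, 2.03 and 1.53 on the log2 scale. The call of Gata1 was lost without any 1 of the 4 arrays (log2 fold changes -2.58 to -2.31), and without HE1 replicate 1 those of Irf8 (0.98) and Lef1 (-1.23) were lost. The fit covered all 8 groups, and the Sp1+/+ HE1 arrays of Gata1 lay far apart (9.57 and 6.89). With only the 4 arrays in the limma fit the unadjusted p of Gata1 was 3.11e-05. With the mean over probes Cbfa2t3 rose by only 0.71. Of 13 macrophage genes 2 rose, Mrc1 (log2 fold change 2.93), also a gene of some endothelium, and Mpo (1.98), a granule enzyme whose call was lost without HE1 replicate 2 (1.74), Flk1+ replicate 1 (1.93) or Flk1+ replicate 2 (2.02). With only the 4 arrays in the limma fit the unadjusted p of Mpo was 0.000311. Adgre1, C1qa, C1qb and C1qc were not called, with log2 fold changes of 0.16, -0.05, 0.38 and 0.02, and the summed intensity of the list, as log2, was 10.83 to 10.88 in Flk1+ cells and 12.26 to 12.29 in HE1, a sum led by Mrc1 (11.19 and 10.92 in HE1) and Mpo (10.23 and 10.71), while the median log2 fold change of the list was 0.16.

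Of 21 erythroid genes, 2 rose and 4 fell. The embryonic globin genes Hba-x and Hbb-y were dim in Flk1+ cells (6.38 and 6.27, 7.34 and 7.27) and brighter in HE1 (10.88 and 11.15, 11.1 and 10.83), with log2 fold changes of 4.69 and 3.66. Their standard errors were 1.5 and 1.06 in the fit over all 8 groups, in which the 2 Sp1+/+ HE1 arrays lay far apart (13.49 and 7.55 for Hba-x, 13.01 and 9.12 for Hbb-y). Both calls were lost whenever 1 of the 4 arrays was left out, with log2 fold changes of 4.56 to 4.83 for Hba-x and 3.53 to 3.8 for Hbb-y. The globin genes Hbb-bh1, Hba-a1 and Hba-a2 were higher on both HE1 arrays by 3.17 to 3.66 but were not called in that fit, whereas with only the 4 arrays 5 genes of the list were called as rising. Globin genes are near copies of each other, and their probes may share signal. Of the 4 genes that fell, Tfrc, the transferrin receptor, fell by 2.02, Slc25a37, which imports iron into mitochondria, by 1.28, Car2, a carbonic anhydrase, by 2.05 and Tspan33 by 1.47 on the log2 scale, the last a call lost without any 1 of the 4 arrays (-1.58 to -1.36). With only the 4 arrays in the limma fit the unadjusted p of Tspan33 was 0.000263. The erythroid genes thus did not move as 1 group.

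Of 42 Cdx and Hox genes, 6 rose and 2 fell, 34 were not called, and 6 were not well above background on any of the 4 arrays. Most of those that rose lay in the HoxB cluster. Hoxb5 measured 7.88 and 7.92 in Flk1+ cells and 11.42 and 11.68 in HE1 (log2 fold change 3.65), and Hoxb4, a factor of blood stem cells, 8.7 and 8.84 against 11.95 and 11.76 (log2 fold change 3.09). Hoxb7 rose by 2.35, and Hoxb8, not well above background in Flk1+ cells, at least 5.05-fold. The 2 that fell were the anterior genes Hoxb1 (log2 fold change -3.88) and Hoxd1 (-2.22). Cdx1 and Cdx2 were not called, with log2 fold changes of -0.97 and -0.59.

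In the signaling pathways, genes of both directions stood side by side. Of 34 Wnt pathway genes, 12 fell and 3 rose (median -0.54). Dkk1, a secreted Wnt inhibitor, went from 11.84 and 12.03 to 7.36 and 6.93 (log2 fold change -4.79), and the ligand Wnt5b, the nuclear effector Tcf7 and the receptor Lgr5 fell by 4.30, 3.74 and 3.73, whereas the ligand Wnt4 and the receptors Fzd4 and Fzd8 rose by 2.67, 2.08 and 1.04. Fzd8 fell short of 2-fold without HE1 replicate 2 (0.96) or Flk1+ replicate 1 (0.94). Of 31 BMP and TGF-beta genes, 7 rose and 7 fell. The ligand Bmp7 measured 12.39 and 12.27 in Flk1+ cells and 7.25 and 6.79 in HE1 (log2 fold change -5.31), and Fst, an activin antagonist, and the BMP targets Msx1 and Msx2 fell by 3.45, 2.69 and 2.73. The receptors Tgfbr2 and Tgfbr3 and the ligand Bmp6 rose by 3.21, 1.86 and 3.46. Of 21 Notch pathway genes, 5 rose and 5 fell: the receptors Notch1 and Notch4, the ligand Jag2 and the glycosyltransferase Mfng were on the rising side (log2 fold changes 1.49, 2.42, 1.31 and 1.82), and the ligands Dll1 and Dll3, the target Hey1 and the glycosyltransferase Lfng on the falling side (-2.45, -4.07, -2.16 and -1.26). The arterial ligand Dll4 was not called (0.46), the call of Notch1 was lost without HE1 replicate 2 (0.99) or Flk1+ replicate 2 (1.09, unadjusted p of 0.0119), and that of Lfng without Flk1+ replicate 1 (-0.99).

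Of 25 genes of VEGF, angiopoietin and guidance signaling, 7 rose and 3 fell. Pdgfb, the ligand by which endothelium recruits pericytes, measured 11.22 and 11.34 in Flk1+ cells and 14.66 and 14.92 in HE1 (log2 fold change 3.51), and Cxcl12, Angpt1 and the semaphorin receptor Plxnd1 rose by 2.47, 2.11 and 2.05. Cxcr4, the receptor for Cxcl12, measured 11.46 and 11.28 against 6.49 and 6.17 (log2 fold change -5.04, adjusted p = 4.15e-08), so that ligand and receptor moved in opposite directions. Vegfa was not called (log2 fold change 0.01, standard error 0.3). Of 16 integrin genes, 4 rose (Itga1, Itga3, Itga5 and Itgav, by 1.04 to 2.15) and 3 fell (Itgb5, Itga8 and Itga9, by 1.23 to 1.64). Without HE1 replicate 2 or Flk1+ replicate 1 the calls of Itgav (0.84 and 0.85) and Itga8 (-1.05 and -1.09) were lost, and that of Itga8 also without Flk1+ replicate 2 (-1.62).

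Of 24 genes of glycolysis and the hypoxia response, 15 fell, 0 rose and 9 were not called (median -1.37). Aldoc, an aldolase, measured 11.77 and 11.75 in Flk1+ cells and 8.04 and 8.09 in HE1, and Ldhb, a lactate dehydrogenase subunit, 13.85 and 13.6 against 10.45 and 9.82. Ankrd37 and Bnip3, both targets of hypoxia factors, fell by 2.58 and 2.39, whereas Hif1a itself and Gapdh were not called (0.56 and -0.15). Of 32 cell cycle genes 4 rose and 4 fell: the inhibitor genes Cdkn1a, Cdkn2a, Cdkn2b and Cdkn2c rose (log2 fold changes 2.45, 2.71, 1.70 and 1.55), and the cyclin genes Ccnd2 and Ccne1, the checkpoint kinase gene Bub1 and the topoisomerase gene Top2a fell (-2.78, -1.33, -1.37 and -1.13). The call of Cdkn2b was lost without HE1 replicate 1 (1.09) or Flk1+ replicate 1 (1.58). The proliferation gene Mki67 and the replication helicase genes Mcm2 to Mcm7 passed the p threshold but not 2-fold, with log2 fold changes of -0.97 to -0.37.

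Of 26 immediate early and stress genes, 12 rose, 3 fell and 11 were not called (median 0.9). Fosb measured 7.04 and 7.11 in Flk1+ cells and 12.25 and 12.04 in HE1 (log2 fold change 5.07), and Fos, Jun and Atf3 rose by 3.2, 3 and 4.29. HE1 cells were dissociated and sorted by another route than Flk1+ cells, and the part of handling in these values was not tested. Ddit4 and Trib3, induced by nutrient stress, and Egr2 fell by 2.52, 2.05 and 1.27, Egr2 by only 0.97 without HE1 replicate 2. Of 26 interferon and innate genes, 11 rose and 5 fell, the chemokine gene Ccl2 rising by 4.80, Nfkbia by 2.97, Tlr4 by 2.81 and B2m by 2.24, and Ifitm1, Usp18, Irf1 and Psmb8 falling by 4.44, 2.17, 1.92 and 1.84 on the log2 scale. Among the 20 Sp and Klf factors, to which Sp1 belongs, Klf3, Klf6 and Klf7 rose by 2.35, 2.13 and 1.39 and Klf12, Klf15 and Sp1 fell by 1.84, 2.22 and 1.15, while Sp3, which binds the same GC box, was not called (log2 fold change -0.60). Of 23 cholesterol genes only Mvk, mevalonate kinase, rose, at exactly the 2-fold limit, and it fell short of it without HE1 replicate 2 (log2 fold change 0.92) or Flk1+ replicate 2 (0.98). Of 20 genes of DNA methylation and the germline, Rhox5 rose by 1.01 (0.9 without HE1 replicate 2 and 0.99 without Flk1+ replicate 1) and Ddx4 and Sycp3 fell by 2.12 and 2.43. Over all genes tested 4.63% rose and 4.87% fell, so the small counts of the cholesterol and germline lists show no trend of either list. The lists given above by their counts alone had medians between -0.77 for epithelium and 0.55 for smooth muscle and mesenchyme, against -0.01 over all genes.

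Whether the step differed between the genotypes was tested gene by gene, as the change in Sp1-/- cells minus the change in Sp1+/+ cells. At the same thresholds 595 genes (1.6%) differed, 264 with a higher and 331 with a lower change in Sp1-/- cells, and 264 of them passed an adjusted p of 0.05. The changes went the same way in Sp1+/+ cells for 1667 of the 1719 genes that rose and for 1781 of the 1810 that fell. Of the genes called in Sp1-/- cells, 134 that rose and 206 that fell also differed between the genotypes, and the change was the larger one in Sp1-/- cells for 102 and 179 of these, although the same Sp1-/- arrays enter both tests. Of the called differences 44.4% were higher in Sp1-/- cells, but 57.9% of 948 with the scanner's processed signal, whose scaling also differed. The majority also turned to higher without Sp1-/- HE1 replicate 1 or Sp1+/+ Flk1+ replicate 1, and narrowly without Sp1-/- HE1 replicate 2. The share was 44.4% with a background offset of 16 and 45.9% with no background correction.

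Among the lists, Cdh5 rose by 5.17 in Sp1-/- and 5.41 in Sp1+/+ cells (difference -0.25, standard error 0.61, adjusted p = 0.922), and of 34 genes 3 had a lower and 0 a higher change in Sp1-/- cells. Of the 27 primitive streak and mesoderm genes 4 had a lower and 1 a higher change, of the 15 epithelial genes 4 a lower one, and of the 23 cholesterol genes 3 a higher one. In both directions together the blood cell surface list had 5 of 28, the pluripotency list 4 of 24, the immediate early and stress list 4 of 26, the VEGF and guidance list 4 of 25 and the Wnt list 4 of 34, beside 1.6% of all genes, and in the endothelial transcription factor, BMP and TGF-beta, erythroid and macrophage lists 0 differed. The 1.6% also covers the 17033 tested genes without a symbol, which no list holds. The share among genes with a symbol was not counted, so these list counts cannot be read as an excess. A lower change was also called in 3 of 21 Notch, 3 of 24 glycolysis and hypoxia and 2 of 15 endoderm genes. Of the 20 Sp and Klf factors 1 had a higher and 2 a lower change. The median change was -3.93 against -2.29 in Sp1+/+ cells for the primitive streak genes and 0.21 against -0.54 for the cholesterol genes. Of the 19 blood transcription factors 1 had a higher and 1 a lower change in Sp1-/- cells. The difference of Runx1 is given only from alternative fits and not from the main one. Its change was higher in Sp1-/- cells by 1.88 with a background offset of 16. In limma with the replicate block, on the deposited values, the difference had an unadjusted p of 0.00311. A further Runx1 probe was lower by 0.78 in HE1 of Sp1-/- cells, and no genotype difference was tested for that probe alone.

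**Figure D3:**
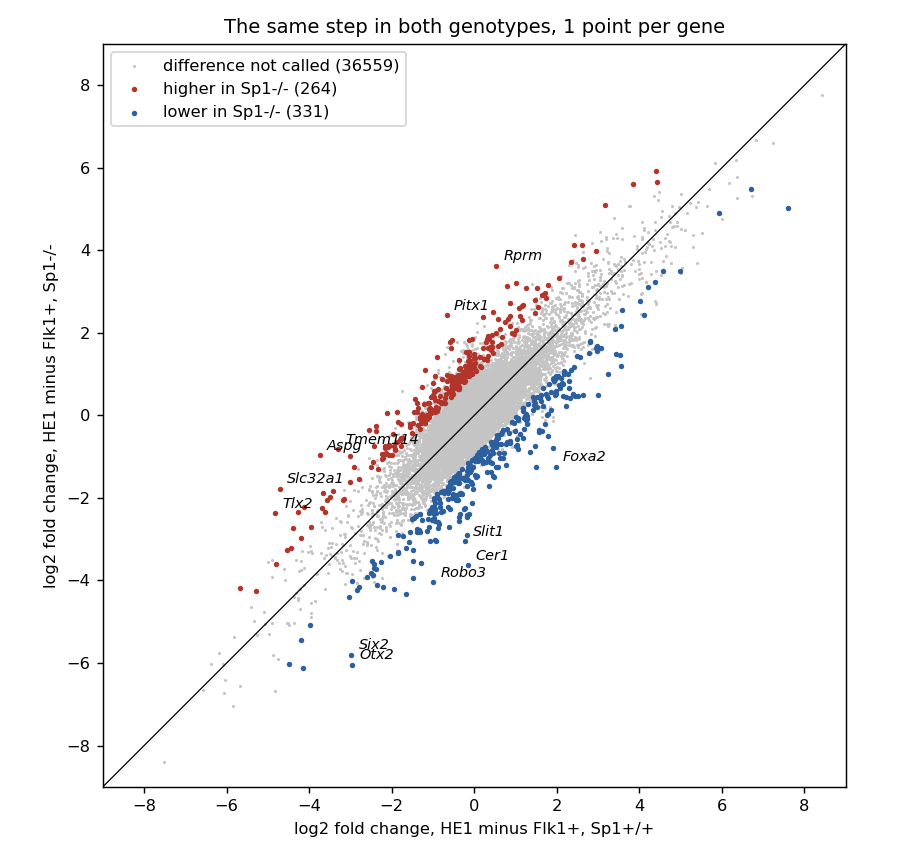
Log2 fold change from Flk1+ cells to HE1 in Sp1+/+ cells (x axis) and Sp1-/- cells (y axis), 1 point per gene tested. Red points mark the 264 genes with a higher and blue points the 331 with a lower change in Sp1-/- cells, grey points the genes whose difference was not called, and the line marks equal change.

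Among the 6 largest negative differences, Cer1, Foxa2, Otx2, Robo3 and Slit1 started higher in Sp1-/- than in Sp1+/+ Flk1+ cells. Cer1, a secreted inhibitor of Nodal, BMP and Wnt, measured 10.23 and 9.3 in Sp1-/- Flk1+ cells and 6.43 and 6.08 in Sp1+/+ Flk1+ cells, and 6.04 to 6.17 on all 4 HE1 arrays of both genotypes. The difference in its change was -3.48 (standard error 0.32, adjusted p = 0.0012). Cer1 was not well above background on the Sp1-/- HE1 arrays and its Sp1+/+ values lay near the same floor, so the size of this difference depends on the floor, and it was -4.24 with a background offset of 16. Slit1, a guidance ligand, measured 11.53 and 11.4 in Sp1-/- against 9.39 and 8.55 in Sp1+/+ Flk1+ cells, and 8.27 to 8.76 on the HE1 arrays (difference -2.83, adjusted p = 0.00385). Robo3, a guidance receptor, followed the same course, at 11.13 and 10.74 against 9.25 and 7.78 in Flk1+ cells and 6.81 to 7.56 in HE1 (difference -3.05, adjusted p = 0.0351). Otx2 measured 13.63 and 12.77 against 10.99 and 8.69 in Flk1+ cells, but the Sp1+/+ arrays lay far apart (difference -3.09, adjusted p = 0.1).

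Foxa2 and Six2 followed other courses. Foxa2, a pioneer factor of endoderm, went from 6.71 and 6.53 to 8.65 and 8.54 in Sp1+/+ cells and from 9.55 and 9.05 to 8.58 and 7.54 in Sp1-/- cells (difference -3.21, standard error 0.4, adjusted p = 0.00541), so its arrays moved in opposite directions. Six2 was alike in Flk1+ cells, at 14.09 and 13.36 in Sp1+/+ and 14.3 and 14.13 in Sp1-/- cells, and lower in HE1 without Sp1, at 8.87 and 7.97 against 10.56 and 10.93 (difference -2.82, adjusted p = 0.0229).

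Among the largest positive differences, Tlx2, a homeobox factor, started lower without Sp1, at 8.37 and 8.52 against 11.14 and 10.98, and was at 6.02 to 6.34 on all HE1 arrays (difference 2.46, standard error 0.14, adjusted p = 8.01e-05). It was not well above background on the Sp1-/- HE1 arrays, so its fall there is a lower bound and the difference depends on the floor. Aspg and Tmem114 also started lower, at 8.35 and 8.6 against 11.84 and 11.41 and at 8.8 and 8.82 against 10.49 and 10.35 (differences 2.78 and 2.48, adjusted p = 0.0203 and 0.0253). Rprm, a p53 target linked to cell cycle arrest, went from 7.87 and 8.07 to 11.51 and 11.69 in Sp1-/- cells and from 8.55 and 9.61 to 10.1 and 9.12 in Sp1+/+ cells (difference 3.1, adjusted p = 0.0319). The differences of Pitx1 (3.1, adjusted p = 0.12) and Slc32a1 (2.94, adjusted p = 0.182) passed only the unadjusted threshold, and their Sp1+/+ replicates lay apart, at 8.62 and 10.47 for Pitx1 in Flk1+ cells and at 8.89 and 7.16 for Slc32a1 in HE1. The rise of Pitx1 in Sp1-/- cells was not called without HE1 replicate 1 (log2 fold change 1.94).

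**Figure D4:**
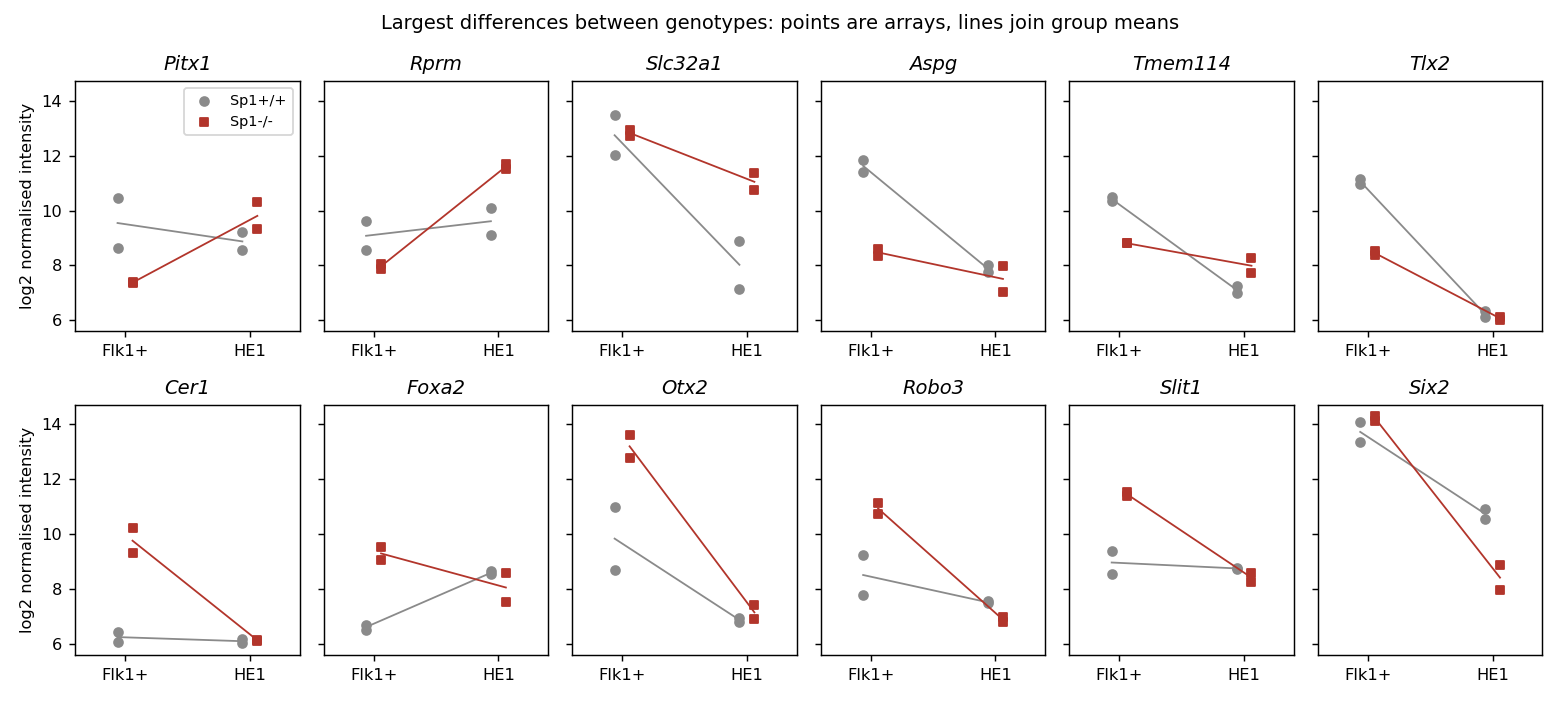
Log2 normalized intensity (y axis) in Flk1+ cells and HE1 for the 6 largest positive (top row) and 6 largest negative (bottom row) called differences between the genotypes. Circles are Sp1+/+ arrays and squares Sp1-/- arrays, 2 per group, and lines join group means. In Cer1, Slit1 and Robo3 the genotypes lie apart in Flk1+ cells and close together in HE1, whereas Six2 shows the reverse.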

How the data were processed

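RNA from 8 combinations of genotype and population was hybridized to one-color Agilent SurePrint arrays, 2 each. The authors deposited scanner tables with the median intensity of each spot, its background and a processed signal, and a table of normalized log2 values. Their methods name Agilent Feature Extraction 10.7.1.1 and limma's normexp correction with an offset of 16 and quantile normalization. An offset of 50 gave the deposited log2 values to within 0.005 and an offset of 16 differed from them by up to 1.63. They have a floor near 5.65, so folds of dim genes are understated and the minimum of 6 removes few genes.

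The deposited log2 values were used as given, without control spots and with outlier spots (95 to 182 per array) set to missing. The deposited target name of 20875 of 37932 targets matched a mouse symbol through RefSeq. A gene's value is that of its brightest probe, which had to reach a log2 intensity of 6 on 1 array or more. Of the further probes of called genes, 88% (rose) and 90.8% (fell) moved the same way. limma 3.58.1 (R 4.3.3) with 8 group means and 8 residual degrees of freedom, tested on simulated data, gave both contrasts, two-sided. Genes were called at p of 0.01 and 2-fold, after the study's methods. Adjusted p-values are limma's, with Benjamini-Hochberg adjustment over all genes. An at least N-fold value is set against the dimmest probes well above background.

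Genes named are Sp1, the endothelial markers Cdh5 and Pecam1, the sort markers, up to 4 in each direction per list, and the 6 largest differences each way. The 15 largest rises and falls, also named, were taken from called genes with a symbol whose groups did not overlap. One gene that the rule names is not reported here. Genes not called are given with values only, and probe disagreements were chosen after their values were seen. The lists and members were chosen with earlier results of these data known. Alternatives changed 1 choice at a time, except that the scanner's processed signal came with scaling to each array's 75th percentile in place of quantile normalization.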

Additional observations from a re-analysis of the deposited data

Results flagged for a closer look

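For 20 of the named genes the change from Flk1+ cells to HE1 differed between the genotypes in the limma interaction test at an adjusted p of 0.05 and by at least 2-fold. Values are the change in Sp1-/- cells minus the change in Sp1+/+ cells on the log2 scale. The groups hold 2 arrays each, so no single array could be tested as an outlier, and each genotype lay on a slide of its own.

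The change was lower in Sp1-/- cells for Cer1 (-3.48), Foxa2 (-3.21), Robo3 (-3.05), Slit1 (-2.83), Six2 (-2.82) and Fgf8 (-1.96). Epithelial and endoderm genes among them were Cdh1 (-2.73, with changes of -2.91 and -0.18) and Foxa1 (-1.53). Sema3a, a guidance ligand, differed by -2.02, as it fell by 2.24 in Sp1-/- and 0.22 in Sp1+/+ cells. The cardiac progenitor factor Isl1 differed by -1.37 and the germline helicase gene Ddx4 by -1.27. Meis1 rose in both genotypes, by 1.56 against 2.98 (difference -1.42).

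The change was higher in Sp1-/- cells for Rprm (3.1), Aspg (2.78), Tmem114 (2.48) and Tlx2 (2.46). Tlx2 and Cer1 were not well above background on either Sp1-/- HE1 array, so the sizes of their differences depend on the floor of the scale. Was rose by 3.08 in Sp1-/- and 1.52 in Sp1+/+ cells (difference 1.56), Adgrg3 by 5.91 against 4.39 (1.51) and Slco4a1 by 5.66 against 4.44 (1.22). Mvk differed by 1.05, with a change of -0.05 in Sp1+/+ cells.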

How the results depend on the processing

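Over 16 alternatives, the counts of genes that rose and fell in Sp1-/- cells stayed within 1.5 times, except where the processed signal and the 75th percentile scaling replaced the deposited values together, which called 2601 and 2718 genes. This setting also called 549 genes with a higher change than in Sp1+/+ cells. Leaving out 1 array gave 1680 to 2445 rising and 1623 to 2295 falling genes, and 183 to 924 higher and 247 to 593 lower differences between genotypes. Their highest values came without Sp1-/- HE1 replicate 1. At an adjusted p of 0.05 the differences numbered 117 and 147, and at 0.01 they numbered 24 and 56.

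With a replicate block, 1759 genes rose and 1818 fell, and 315 differences were higher and 340 lower. Same-numbered Sp1-/- arrays did not deviate together (correlation -0.094 over genes), but 1 correlation cannot show whether the number pairs samples. Of 2715 values of 181 named genes, 2623 kept their direction and their side of the threshold, 88 lost the call, 4 gained it and 0 changed direction. The median of all genes was 0.08 with the processed and scaled signal, against -0.01. List counts moved by over 1.5 times in 41 of 832 cases, most of them counts of 5 or fewer. With 2 arrays per group, a lone array was assumed to vary like the other groups. Dim probes limit the fold changes of genes near background.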
